A study of Mus musculus with 10 samples.

Results

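Collagen chains are the polypeptides that assemble in threes into the collagens of the extracellular matrix, and they were read from the liver RNA of mice given a VEGF-A adenovirus. All entries of the expression table whose gene symbol has the form of a collagen chain (Col, a type number, the letter a and a chain number) were taken, whatever their values. This gave 44 chains among 24011 transcripts with a gene symbol. The animals were male C57BL/6 mice aged 8 to 12 weeks, and both groups of 5 received an adenovirus through the tail vein. The AdVEGFA group received a vector expressing VEGF-A165 from the CMV promoter, and the AdCMV group received the same vector with the promoter but without a transgene. The livers were perfused and collected on day 6, and RNA depleted of ribosomal RNA was sequenced. The CMV promoter is not restricted to a cell type, the virus entered by the blood, and an untreated group was not analysed here, so effects common to both vectors cannot be seen. Expression was given as RPKM, that is, the reads on a transcript divided by its length in kilobases and by the mapped reads of its library.

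Collagens are made as procollagen chains that fold into a triple helix in the endoplasmic reticulum, and they are sorted into classes by the structure they build. Fibrillar collagens form the banded fibrils of connective tissue, type IV collagen forms the network of basement membranes, type VI collagen forms beaded filaments, and the fibril-associated collagens decorate the surface of fibrils. In the liver, stellate cells and portal fibroblasts are known as producers of fibrillar collagen, endothelial and mural cells deposit type IV collagen, and hepatocytes are the known source of type XVIII collagen.

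Depth was between 5596470 and 13494000 mapped reads per library, so that 3 reads on a transcript of 1 kb corresponded to 0.222 to 0.536 RPKM. The 21 major urinary protein (Mup) genes of hepatocytes took between 18.0 and 50.5% of the reads in the AdCMV mice and between 7.84 and 28.6% in the AdVEGFA mice. Over the 13933 genes tested, the log2 fold change had a median of 0.38 on the deposited RPKM and -0.00443 after median-ratio scaling, which centres each library on its typical gene, and both scales are given where they differ in a call. Mouse Vegfa was measured at 18.1 ± 3.49 RPKM (SD, n = 5) in the AdCMV mice and at 31.8 ± 4.65 RPKM (SD, n = 5) in the AdVEGFA mice. Its levels did not overlap between the groups, and the log2 fold change of 0.82 was below the threshold used here. The study's methods measure the vector's product as human VEGF, so reads on the mouse Vegfa transcript need not report the level of the transgene. AdVEGFA replicate 4 stood apart in several chains, and counts without it are given beside the main ones.

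Of the 44 chains, 19 exceeded a mean of 0.5 RPKM in at least 1 group and were tested with limma. A call needed an adjusted p below 0.05 together with a log2 fold change beyond 1 in either direction. Of these 19, 13 were called higher in the AdVEGFA mice and 0 lower. Among all genes tested, 13.0% were called higher and 1.54% were called lower. The 13 chains were Col1a1, Col1a2, Col3a1, Col5a1, Col5a2, Col4a1, Col4a2, Col6a1, Col6a2, Col6a3, Col8a1, Col14a1 and Col16a1. Their RPKM did not overlap between the groups, which was also the case, in the same direction, for 14.3% of all genes tested, and 0 chains lay wholly below, against 1.29% of all genes. Of the chains tested, Col6a2, Col8a1, Col16a1 and the uncalled Col12a1 exceeded the mean of 0.5 RPKM only in the AdVEGFA group. Their AdCMV means were 0.402, 0.416, 0.308 and 0.33 RPKM. Without this filter 13 of 41 chains were called higher, against 1934 of 18554 genes. The median log2 fold change of the 19 chains was 2.37. After median-ratio scaling 13 chains were called higher, against 7.77% of all genes, and 1 was called lower, against 3.14%. With treat, a stricter limma test against the fold threshold itself, 12 were called higher, against 3.61% of all genes. Without AdVEGFA replicate 4 the number called higher was 14, from a changed set of 19 chains. Col12a1 no longer passed the filter, while Col25a1 passed it through its AdVEGFA mean alone and was the added call. In RNA of whole liver, a change in the number of cells of a type and a change in the RNA of each cell cannot be told apart.

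**Figure D1:**
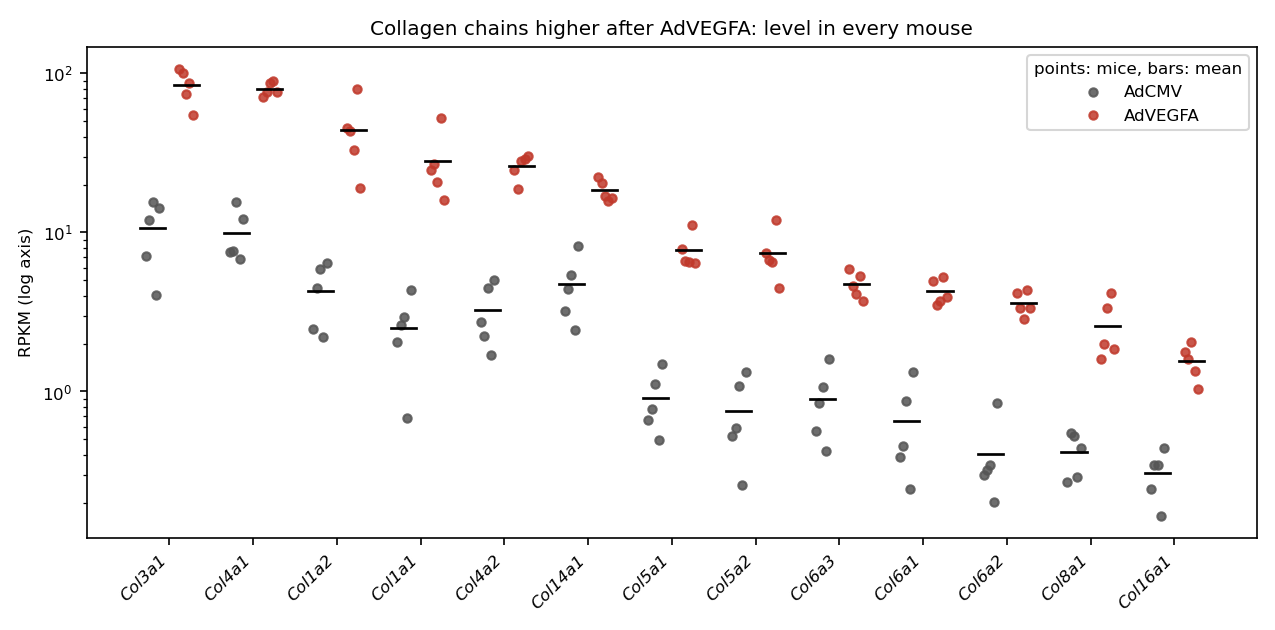
Level of the 13 chains called higher, in RPKM on a log axis, with 1 point per mouse (grey AdCMV, red AdVEGFA, 5 mice each) and a bar at the group mean. Each AdVEGFA mouse lies above each AdCMV mouse for every chain shown, from Col3a1 at a mean of 84.5 RPKM to Col16a1 at 1.56 RPKM in the AdVEGFA group.

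The 3 largest fold changes, of Col1a1, Col1a2 and Col5a2, were of fibrillar chains. Of the 11 fibrillar chains, 7 were tested and 5 rose, with a median log2 fold change of 3.10 over the 7. Col1a1 and Col1a2 encode the chains of type I collagen, the main fibril collagen of scar and connective tissue. Col1a1 was measured at 2.05, 2.60, 2.92, 0.685 and 4.34 RPKM in the AdCMV mice and at 24.6, 27.1, 20.7, 52.6 and 15.9 RPKM in the AdVEGFA mice. The lowest AdVEGFA mouse was therefore well above the highest AdCMV mouse, and replicate 4 of the AdVEGFA group was highest by a wide margin. The log2 fold change of Col1a1 was 3.51 (SE 0.39, adjusted p = 4.41e-06 with limma), with means 11.2-fold apart. Col1a2 was measured at 2.47, 4.47, 5.91, 2.21 and 6.45 RPKM in the AdCMV mice and at 45.3, 43.2, 33.2, 79.8 and 19.1 RPKM in the AdVEGFA mice. The order of the AdVEGFA mice was close to that of Col1a1, with replicate 4 highest and replicate 5 lowest for both. Col1a2 had a log2 fold change of 3.30 (SE 0.35, adjusted p = 3.16e-06 with limma).

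Col3a1 encodes the single chain of type III collagen, which lies in the same fibrils and in the reticular fibres of the liver lobule. It was measured at 7.09, 12, 15.6, 4.06 and 14.3 RPKM in the AdCMV mice and at 106, 101, 73.9, 86.8 and 54.5 RPKM in the AdVEGFA mice. It was the chain with the highest mean level of all in the AdVEGFA group, and there replicate 4 fell in the middle. The log2 fold change was 3.10 (SE 0.32, adjusted p = 2.13e-06 with limma). The promoters of Col1a2 and Col3a1 are printed because the chains moved together while their sequences differ in composition. Both are windows from 250 bases before to 50 bases after the annotated start, from RefSeq on GRCm38.p6, a build other than that of the expression table. Col1a2 is chr6:4505368-4505667 and Col3a1 is chr1:45311288-45311587, both on the plus strand. They are written 5′ to 3′, and capitals mark the matches to CCAAT or to TATAAA on either strand.
Col1a2: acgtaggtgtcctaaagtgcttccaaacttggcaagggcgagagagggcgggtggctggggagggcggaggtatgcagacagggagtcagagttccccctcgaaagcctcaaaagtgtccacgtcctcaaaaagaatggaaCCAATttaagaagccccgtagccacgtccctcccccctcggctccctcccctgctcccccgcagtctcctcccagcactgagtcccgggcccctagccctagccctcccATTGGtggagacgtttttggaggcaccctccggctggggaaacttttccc
Col3a1: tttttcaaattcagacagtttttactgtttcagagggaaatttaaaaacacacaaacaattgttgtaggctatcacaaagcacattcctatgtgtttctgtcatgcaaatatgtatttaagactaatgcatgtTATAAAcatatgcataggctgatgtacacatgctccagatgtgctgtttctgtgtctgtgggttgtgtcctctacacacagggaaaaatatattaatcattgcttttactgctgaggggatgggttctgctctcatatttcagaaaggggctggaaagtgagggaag
The Col1a2 window was 61.0% G or C and the Col3a1 window 37.7%. Col1a2 held CCAAT on both strands and no TATAAA, and Col3a1 held TATAAA without the other motif. The motif CCAAT was present on either strand in 37.4% of the 32851 mouse windows of this length and TATAAA in 13.6%, so neither is rare, and a match is only a description of the letters.

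Type V collagen nucleates the type I and III fibrils and sets their diameter, and 2 of its 3 chains were called higher. Col5a1 was measured at 0.663, 0.774, 1.11, 0.496 and 1.48 RPKM in the AdCMV mice and at 7.90, 6.58, 6.48, 11.2 and 6.44 RPKM in the AdVEGFA mice. The groups were far apart, and the log2 fold change was 3.01 (SE 0.28, adjusted p = 7.06e-07 with limma). Col5a2 lay between 0.259 and 1.32 RPKM in the AdCMV mice and between 4.46 and 12 RPKM in the AdVEGFA mice, with a log2 fold change of 3.23 (SE 0.35, adjusted p = 3.78e-06 with limma). Col5a3, the third type V chain, was measured at 1.79, 2.28, 2.55, 1.20 and 2.19 RPKM in the AdCMV mice and at 2.37, 1.90, 2.58, 1.61 and 2.67 RPKM in the AdVEGFA mice. These values overlapped almost completely. For Col5a3 the log2 fold change was 0.16 with a 95% interval from -0.37 to 0.70, and it was -0.22 with an interval from -0.63 to 0.20 after median-ratio scaling. In the AdCMV livers Col5a3 had the highest mean RPKM of the type V chains, at 2.00 against 0.905 for Col5a1 and 0.756 for Col5a2. In the AdVEGFA livers it had the lowest, at 2.23 against 7.71 and 7.43.

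Col27a1, a fibrillar chain known from cartilage, was the tested chain with the lowest log2 fold change. It was measured at 2.24, 2.05, 1.54, 1.14 and 2.00 RPKM in the AdCMV mice and at 0.917, 0.925, 0.732, 1.97 and 0.863 RPKM in the AdVEGFA mice. Except for replicate 4, every AdVEGFA mouse was below every AdCMV mouse. On the deposited RPKM the log2 fold change was -0.73 (SE 0.30, 95% interval -1.36 to -0.09, adjusted p = 0.0863 with limma) and it was not called. After median-ratio scaling it was -1.10 (95% interval -1.70 to -0.50, adjusted p = 0.0127 with limma), and Col27a1 was the chain called lower. Over all 23 alternatives its log2 fold change was between -1.19 and -0.44, and its adjusted p with limma between 0.00647 and 1.

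The network collagen of basement membranes was also higher. Of 6 type IV chains, Col4a1 and Col4a2 were tested and both were called higher. These encode the chains of the form of type IV collagen that underlies most blood vessels. Col4a1 was measured at 7.58, 7.68, 15.6, 6.82 and 12.1 RPKM in the AdCMV mice and at 70.7, 76.4, 86.4, 90.1 and 76.3 RPKM in the AdVEGFA mice. The AdVEGFA values lay close to each other, and they rested on 2607 to 4808 reads per mouse. The log2 fold change was 3.06 (SE 0.23, adjusted p = 1e-07 with limma). Col4a2 was measured at 2.75, 2.22, 4.48, 1.70 and 5.04 RPKM in the AdCMV mice and at 24.7, 18.6, 28.0, 28.9 and 30.4 RPKM in the AdVEGFA mice. Its log2 fold change was 3.07 (SE 0.27, adjusted p = 4.49e-07 with limma), with means 8.07-fold apart against 8.04-fold for Col4a1.

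Col4a1 and Col4a2 lie head to head on chromosome 8. In the mm9 coordinates of the expression table, Col4a1 (chr8:11198423-11312826, minus strand) ends 2 bases before Col4a2 (chr8:11312829-11449287, plus strand) begins, so that both transcripts start from the same stretch. Their promoter windows are printed because they overlap, and the 78 bases that both hold are in capitals. They are from RefSeq on GRCm38.p6, Col4a1 at chr8:11312777-11313076 on the minus strand and Col4a2 at chr8:11312555-11312854 on the plus strand, each 5′ to 3′ on its own strand.
Col4a1: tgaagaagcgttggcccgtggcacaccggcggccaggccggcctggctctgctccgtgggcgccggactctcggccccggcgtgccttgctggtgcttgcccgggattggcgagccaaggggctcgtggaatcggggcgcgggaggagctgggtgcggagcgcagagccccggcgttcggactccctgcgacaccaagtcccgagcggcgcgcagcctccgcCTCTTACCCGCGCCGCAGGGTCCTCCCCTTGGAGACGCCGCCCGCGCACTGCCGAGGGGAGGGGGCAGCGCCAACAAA
Col4a2: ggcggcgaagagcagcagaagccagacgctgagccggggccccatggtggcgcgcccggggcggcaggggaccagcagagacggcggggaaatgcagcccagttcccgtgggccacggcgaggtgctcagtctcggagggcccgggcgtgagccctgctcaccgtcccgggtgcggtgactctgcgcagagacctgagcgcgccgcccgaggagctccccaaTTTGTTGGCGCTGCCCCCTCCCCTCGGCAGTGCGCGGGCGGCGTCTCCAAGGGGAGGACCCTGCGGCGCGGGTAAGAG
The shared bases of the windows are thus the reverse complement of each other. The windows were 74.0% and 73.7% G or C. Other neighbours in the table were Col4a4 and Col4a3 on chromosome 1, whose transcripts lie 71 bases apart, and Col4a6 and Col4a5 on chromosome X, 1342 bases apart, and these 4 chains were too low to be tested. Col3a1 and Col5a2, both called higher, lie 24624 bases apart on chromosome 1. Over the collagen chains, 35 of 44 had a RefSeq window, and 10 of the 13 chains called higher, with 11 windows in all. The GC box GGGCGG, on either strand, was in 8 of these 11 windows, of which 2 belong to Col6a2, in 23 of the 38 windows of all collagen chains and in 35.7% of all mouse windows. The only match of the Col4a1 window lies in the 78 bases shared with Col4a2. It is the same site as a match of the Col4a2 window, so that site is counted in both. CCAAT was in 4 of the 11 and TATAAA in 1. CAGACA, the half-site of SMAD proteins, was in 4 of the 11 and in 21.0% of all windows. CCGGAA, a core of ETS factor sites, was in 0 of the 11 and in 14.9% of all windows.

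Type VI collagen links cells and basement membranes to the surrounding fibrils, and the 3 chains of its common form were all called higher. Col6a1 lay between 0.242 and 1.32 RPKM in the AdCMV mice and between 3.52 and 5.21 RPKM in the AdVEGFA mice, with a log2 fold change of 2.70 (SE 0.34, adjusted p = 1.68e-05 with limma). Col6a2 was measured at 0.299, 0.321, 0.343, 0.201 and 0.845 RPKM in the AdCMV mice and at 4.14, 3.35, 2.85, 4.35 and 3.33 RPKM in the AdVEGFA mice. In the AdCMV mice these values rested on 7 to 18 reads, with replicate 5 above the others. The log2 fold change of Col6a2 was 2.99 (SE 0.31, adjusted p = 2.47e-06 with limma). Col6a3, the long chain, lay between 0.423 and 1.61 RPKM and between 3.69 and 5.91 RPKM, with a log2 fold change of 2.37 (SE 0.30, adjusted p = 1.86e-05 with limma). The other 3 type VI chains (Col6a4, Col6a5 and Col6a6) did not exceed 0.102 RPKM in any mouse.

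Among the fibril-associated collagens, 2 of the 3 tested chains rose. Col14a1, which binds to the surface of fibrils, was measured at 3.19, 4.44, 5.44, 2.44 and 8.25 RPKM in the AdCMV mice and at 22.2, 20.6, 17.0, 15.7 and 16.4 RPKM in the AdVEGFA mice. The groups were well separated, with a log2 fold change of 2.04 (SE 0.27, adjusted p = 3e-05 with limma). Col16a1 lay between 0.165 and 0.440 RPKM and between 1.04 and 2.05 RPKM, on 8 to 24 and 36 to 61 reads. Its log2 fold change was 2.03 (SE 0.32, adjusted p = 0.000189 with limma). Col12a1 overlapped between the groups, with a log2 fold change of 0.46 and a 95% interval from -0.50 to 1.42. Col8a1, a short-chain collagen made by vessel walls, was measured at 0.271, 0.552, 0.522, 0.291 and 0.442 RPKM in the AdCMV mice and at 1.60, 1.98, 3.36, 4.19 and 1.86 RPKM in the AdVEGFA mice. It was higher in every AdVEGFA mouse, with a log2 fold change of 2.33 (SE 0.32, adjusted p = 4.87e-05 with limma).

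The multiplexins Col15a1 and Col18a1 sit in basement membranes and carry fragments that are known to restrain angiogenesis, endostatin in the case of Col18a1. Neither was called. Col18a1 was measured at 63.8, 47.6, 51.2, 49.7 and 78.3 RPKM in the AdCMV mice and at 82.3, 75.2, 70.4, 79.1 and 85.5 RPKM in the AdVEGFA mice. Only AdCMV replicates 1 and 5 came near to the AdVEGFA mice, and replicate 5 lay within their range. Col18a1 had a log2 fold change of 0.46 (SE 0.19, 95% interval 0.06 to 0.85, adjusted p = 0.0864 with limma) on the deposited RPKM, near the median of all genes. After median-ratio scaling it was 0.05, with an interval from -0.36 to 0.47. Col15a1 lay between 0.623 and 1.97 RPKM in the AdCMV mice and between 1.12 and 3.68 RPKM in the AdVEGFA mice, where replicate 4 was highest. Its log2 fold change was 0.71 with a 95% interval from -0.03 to 1.45. Col13a1, a transmembrane collagen of cell contacts, overlapped between the groups with a log2 fold change of -0.13 and an interval from -0.99 to 0.73. These intervals are wide, and for Col12a1 and Col15a1 they include changes past the threshold.

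**Figure D2:**
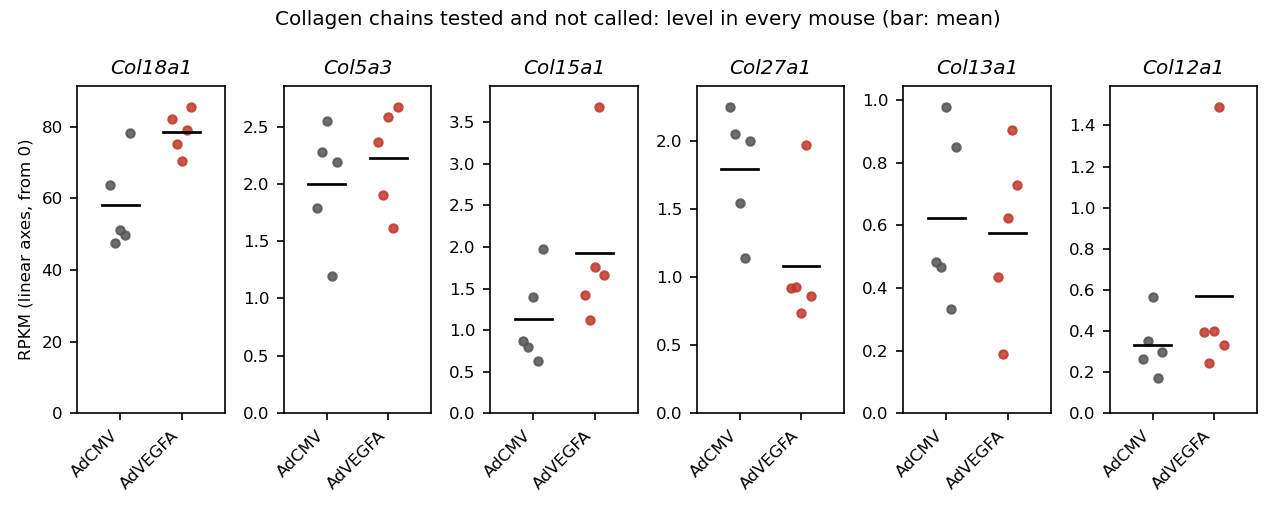
Level of the 6 tested chains that were not called on the deposited RPKM, with 1 point per mouse (grey AdCMV, red AdVEGFA, 5 mice each), a bar at the group mean and a linear axis from 0 for each chain. The groups overlap in all 6, and AdVEGFA replicate 4 is the isolated high point of Col15a1 (3.68 RPKM), Col27a1 (1.97 RPKM) and Col12a1 (1.49 RPKM).

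**Figure D3:**
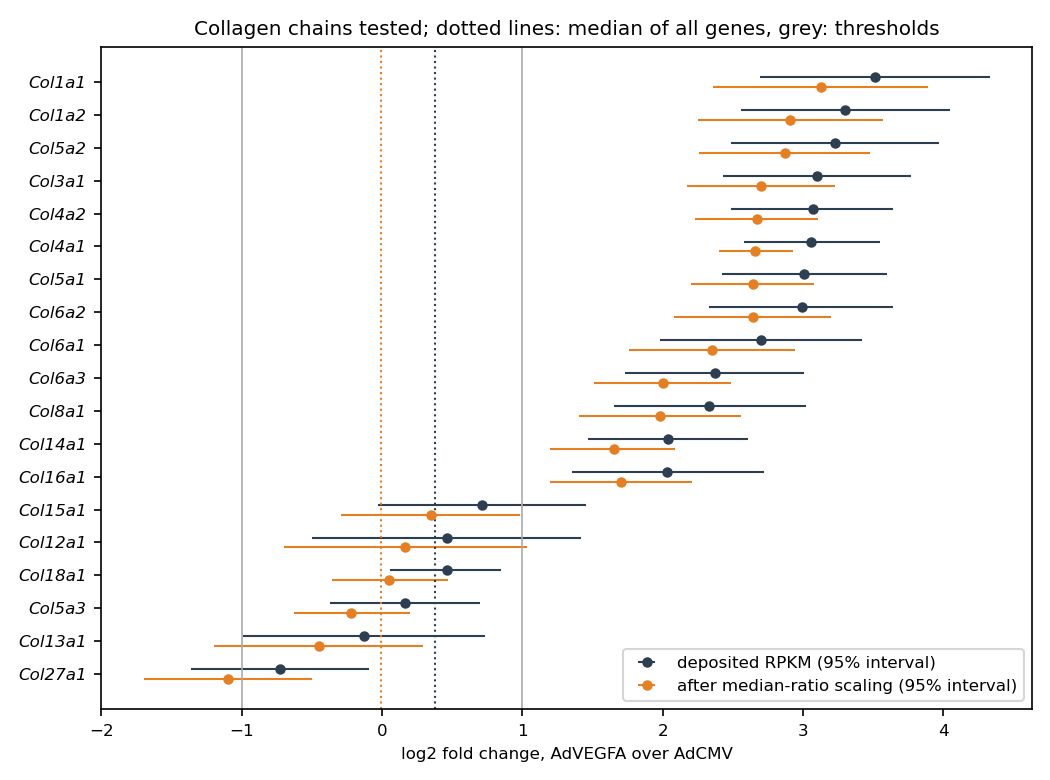
Log2 fold change of the 19 tested chains with 95% intervals, on the deposited RPKM (dark) and after median-ratio scaling (orange). Dotted lines mark the median of all genes on each scale and grey lines the thresholds at -1 and 1. The 13 chains called higher lie between 2.03 (Col16a1) and 3.51 (Col1a1) on the deposited RPKM, and Col27a1 passes the lower threshold only after the scaling.

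The other 25 chains were too low for the test. Col2a1 of cartilage, Col22a1 and Col26a1 were listed at 0 in every mouse. Together with these 3, a total of 9 chains had at most 3 reads in each mouse, a depth at which a change was not detectable. Col4a5 was the untested chain with the highest single value, 0.932 RPKM in an AdCMV mouse, and ranged from 0.203 to 0.932 RPKM in the AdCMV and from 0.261 to 0.373 RPKM in the AdVEGFA mice. Col25a1, a transmembrane chain known from neurons, had the highest mean of the 25, 0.495 RPKM in the AdVEGFA mice against 0.108 RPKM in the AdCMV mice. Without any filter, 22 of the 25 could be tested and 0 were called with limma. There Col25a1 had a log2 fold change of 1.32 and an adjusted p of 0.0565. When a single mouse over 0.5 RPKM sufficed, its adjusted p was 0.0735. Without AdVEGFA replicate 4, Col25a1 passed the filter on its mean and was called, with a log2 fold change of 1.79 (SE 0.45, adjusted p = 0.00882 with limma).

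The sum over all chains and its make-up shifted with these changes. Summed collagen RPKM was between 74.3 and 146 (median 98.7) in the AdCMV mice and between 332 and 488 (median 397) in the AdVEGFA mice. Col18a1 alone made up between 44.3 and 66.8% of the sum in the AdCMV mice, and between 16.2 and 25.8% in the AdVEGFA mice. The chains of the type I, III and V fibrils went from a range of 12 to 25.2% (median 20.6%) to one of 31.1 to 50% (median 46.3%). Type IV chains went from 11 to 18.4% (median 12%) to between 23 and 32.4% (median 24.5%). Thus Col18a1 was the leading single chain of each AdCMV liver, and the summed fibril chains exceeded it in each AdVEGFA liver. As a single chain Col18a1 still led in AdVEGFA replicate 5, at 85.5 RPKM against 76.3 RPKM for Col4a1. Col14a1 kept overlapping shares, from 3.24 to 5.67% and from 3.22 to 5.32%. These shares are parts of 1 sum, so that a rise of some chains lowers the share of the others, and they do not depend on how libraries are scaled to each other. They are given as a description, without a test.

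**Figure D4:**
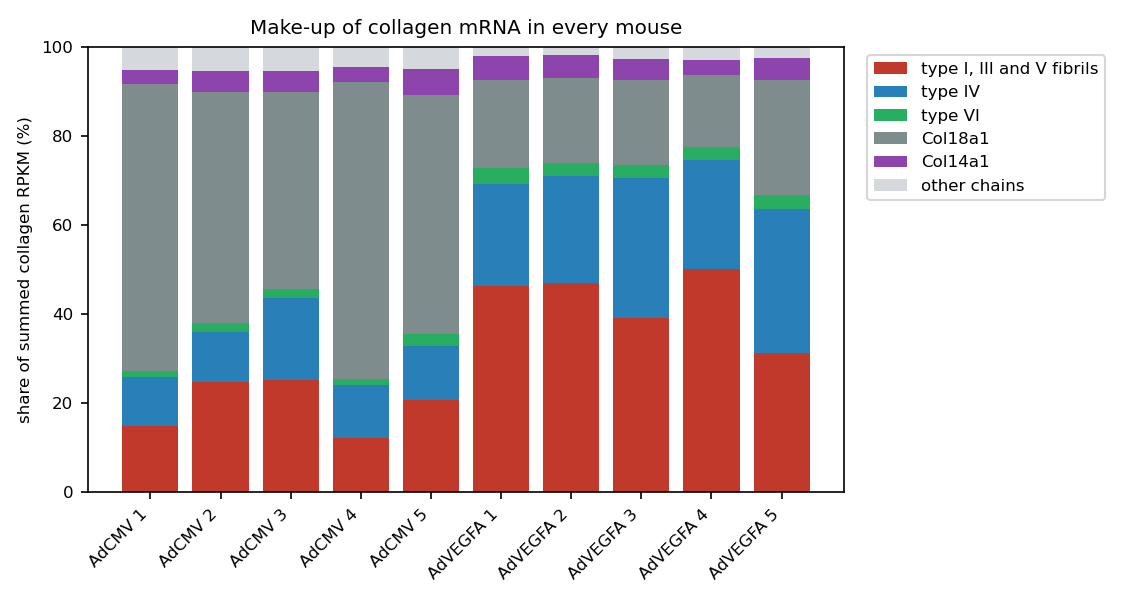
Make-up of the summed collagen RPKM in each of the 10 mice, in percent, as stacked bars that start at 0. Col18a1 (dark grey) takes from 44.3 to 66.8% of the sum in the AdCMV mice and from 16.2 to 25.8% in the AdVEGFA mice, and fibril chains (red) and type IV chains (blue) take larger shares in the AdVEGFA mice.

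Pairs of chains, among them chains that assemble with each other, were compared by their ratio within each mouse. For the test 0.1 was added to both RPKM values before the log2 ratio was taken. Scaling between libraries does not alter the plain ratio, but it can alter the tested one where a chain is low. The test was an exact two-sided permutation over the mice (5 against 5, smallest possible p 0.00794), with adjustment over 8 ratios. In none of the 8 did the groups differ past the threshold. Col4a1 and Col4a2 occur 2 to 1 in the type IV molecule, and the RPKM ratio of Col4a1 to Col4a2 was between 2.40 and 4.02 in the AdCMV mice and between 2.51 and 4.10 in the AdVEGFA mice. On the log2 scale the groups had the same mean of 1.63, and the difference was 0.00 with an interval from -0.41 to 0.39 (exact permutation p = 1, adjusted p = 1). Col1a1 to Col1a2, likewise 2 to 1 in the type I molecule, had a ratio between 0.310 and 0.831 in the AdCMV mice and between 0.543 and 0.834 in the AdVEGFA mice. Its log2 difference was 0.21 with an interval from -0.34 to 0.80 (exact permutation p = 0.452, adjusted p = 0.58). For Col5a1 to Col5a2 the log2 difference was -0.22 (interval -0.59 to 0.15), and for Col6a1 to Col6a2 it was -0.28 (interval -0.71 to 0.06). Each of these intervals includes 0. Between collagen types, Col3a1 to Col1a1 differed by -0.41 (interval -1.08 to 0.19) and Col4a1 to Col1a1 by -0.45 (interval -1.59 to 0.50). Col5a2 to Col1a1 differed by -0.28 (interval -0.68 to 0.13), and Col15a1 to Col18a1 by 0.26 (interval -0.52 to 1.08). The intervals of Col3a1 to Col1a1, Col4a1 to Col1a1 and Col15a1 to Col18a1 are wide enough to hold a change of more than 1 on the log2 scale.

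Within a group, the same mice tended to be lowest or highest over the chains. AdCMV replicate 4 had the lowest level of its group in 12 of the 13 chains called higher, and it had the highest Mup share, 50.5%. AdCMV replicate 5 was highest in 10 of the 13, at a Mup share of 32.4%. AdCMV replicate 3, with the lowest Mup share of its group, 18.0%, was highest in 2. In the AdVEGFA group replicate 4 was highest in 8 and replicate 5 lowest in 7, at Mup shares of 11.2 and 28.6%. A relation to the Mup share was not tested. With library totals computed without the Mup genes, 13 chains were still called higher.

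Folding, cutting and cross-linking of collagen need a set of other gene products, and 50 such genes were listed, of which 38 were tested. On the deposited RPKM 19 of these were called higher and 0 lower, with a median log2 fold change of 1.06 against 0.38 over all genes, of which 13.0% were called higher. After median-ratio scaling 13 were called higher and 0 lower, against 7.77% of all genes called higher. Of the 19, Fkbp10, Plod2, Adamts2, Pcolce2 and Mrc2 exceeded the mean of 0.5 RPKM only in the AdVEGFA group. In the endoplasmic reticulum, 4 of 16 tested enzymes and chaperones were called higher. Serpinh1, the collagen-specific chaperone known as Hsp47, was measured at 7.37, 7.65, 8.42, 3.54 and 8.66 RPKM in the AdCMV mice and at 51.3, 46.4, 52.3, 65.6 and 35.8 RPKM in the AdVEGFA mice. The groups were far apart, with a log2 fold change of 2.84 (SE 0.25, adjusted p = 3.75e-07 with limma). Fkbp10, a prolyl isomerase needed for procollagen folding and cross-linking, rose from 0.429 ± 0.197 to 6.76 ± 3.33 RPKM (SD, n = 5), a log2 fold change of 3.70 (SE 0.35, adjusted p = 8.24e-07 with limma). Plod2, the lysyl hydroxylase of the telopeptides, rose by a log2 fold change of 2.14 and Crtap, a partner of the prolyl 3-hydroxylase, by 2.03. The other 12 were not called. Among them Plod1, Fkbp14 and Plod3 were higher without overlap but missed the fold threshold. Their log2 fold changes were 0.89, 0.83 and 0.65 (adjusted p = 0.00612, 0.00984 and 0.0369 with limma), and 0.49, 0.45 and 0.25 after median-ratio scaling. The 12 also include the most abundant ones. P4hb, the protein disulfide isomerase that is also a subunit of prolyl 4-hydroxylase, was at 224 ± 42.0 and 253 ± 49.7 RPKM (SD, n = 5), a log2 fold change of 0.18. Ppib, a cyclophilin, was at 0.19 and P4ha1, the catalytic subunit of prolyl 4-hydroxylase, at 0.15 on the log2 scale. The last 3 values turned negative after median-ratio scaling, to -0.23, -0.21 and -0.24.

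Outside the cell, 3 of the 5 tested procollagen processing genes were called higher, against 13.0% of all genes. These were the N-proteinase Adamts2 (log2 fold change 1.99) and the enhancers of C-proteinase Pcolce (1.65) and Pcolce2 (2.03), whereas Bmp1, the C-proteinase itself, was at 0.33 and was not called. Of the 5 tested cross-linking genes, 3 were called higher on the deposited RPKM and 2 after median-ratio scaling. Over all genes these shares were 13.0% and 7.77%. Pxdn, the peroxidase that forms the sulfilimine bonds of type IV collagen, was measured at 1.11, 1.09, 1.62, 0.515 and 1.77 RPKM in the AdCMV mice and at 15, 11.4, 13, 12.5 and 14.4 RPKM in the AdVEGFA mice. The AdVEGFA values lay close to each other and far above the AdCMV values, with a log2 fold change of 3.43 (SE 0.27, adjusted p = 1.61e-07 with limma). Of the lysyl oxidase relatives, Loxl1 rose by a log2 fold change of 2.28. Loxl3 was called at 1.10 on the deposited RPKM and was not called at 0.71 after the scaling, and it lost its call in 7 of 23 alternatives. Loxl4 was at -0.15. Lox was too low to be tested.

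Collagen receptors were called higher in 6 of 7 tested genes on the deposited RPKM, against 13.0% of all genes. Their log2 fold changes were between 1.04 (Itgb1, the common integrin beta chain) and 1.36 (Ddr1, a receptor tyrosine kinase for collagen). After median-ratio scaling only Ddr1 was called, at 1.01, against 7.77% of all genes called higher. On the deposited RPKM the groups overlapped for Ddr1 and for Adgrg1. Among the small proteoglycans that bind fibrils, 3 of 5 tested genes were called higher on both scales. Prelp, which anchors basement membranes to connective tissue, rose by a log2 fold change of 2.27, Bgn by 2.01 and Lum by 1.94. Dcn, the one with the highest level, was at 71.1 ± 14.5 and 130 ± 37.0 RPKM (SD, n = 5), with a log2 fold change of 0.84, and was not called.

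**Figure D5:**
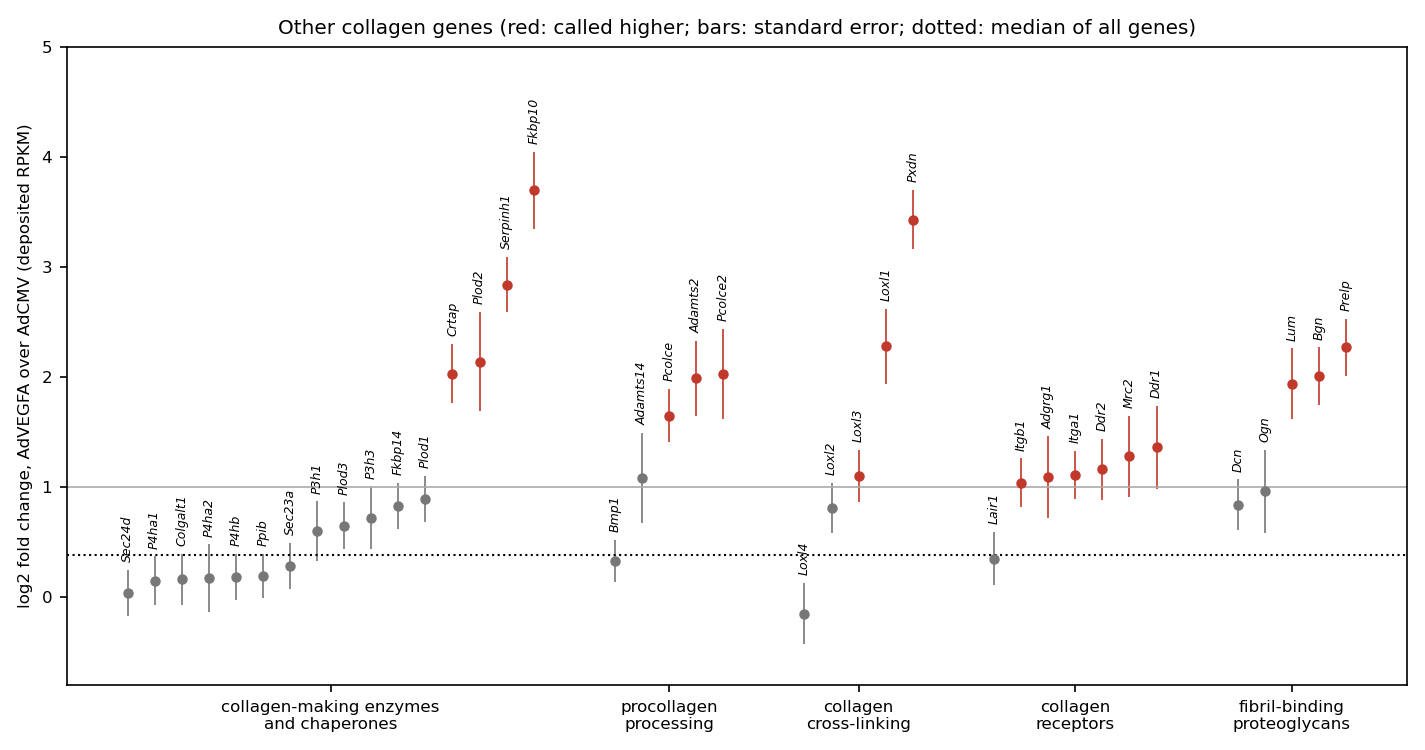
Log2 fold change on the deposited RPKM of the 38 tested genes that make, process, cross-link, bind or sense collagen, by group, with the standard error. Red points are the 19 called higher, the grey line is the threshold of 1 and the dotted line is the median of all genes, 0.38. Fkbp10 (3.70), Pxdn (3.43) and Serpinh1 (2.84) lie highest, and 12 of the 16 enzymes and chaperones are not called.

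Markers of several cell types moved with the chains, and their counts stand against 13.0% of all genes called higher on the deposited RPKM and 7.77% after median-ratio scaling. All 7 tested endothelial markers were called higher on both scales, and their summed level went from between 23.7 and 48.7 RPKM in the AdCMV mice to between 185 and 255 RPKM in the AdVEGFA mice. The same held for 5 of 5 sinusoidal endothelial markers, with sums of 31.2 to 52.3 RPKM and 124 to 191 RPKM. Of 8 stellate cell markers 7 were called higher, with sums of 29.3 to 45.3 RPKM and 79.6 to 135 RPKM. Smooth muscle and myofibroblast markers were called higher in 4 of 5 genes, with sums of 14 to 27.1 RPKM and 80 to 267 RPKM. In these 4 lists the sums of the groups did not overlap, and the same was true of the hepatocyte list given below. Portal fibroblast markers were called higher in 1 of 5 genes (Eln, log2 fold change 1.16) on the deposited RPKM and in 0 after median-ratio scaling (Eln 0.83), and their sums overlapped, with 3.35 to 8.08 RPKM and 6.32 to 7.84 RPKM. Mesothelial markers, of which 1 of 4 could be tested, and cholangiocyte markers, of which 3 of 5 could be tested, were called in 0 genes. The mesothelial sums were 0.198 to 1.25 RPKM and 0.948 to 1.84 RPKM, and the cholangiocyte sums 5.58 to 7.93 RPKM and 7.66 to 16.1 RPKM. Kupffer cell markers were called higher in 2 of 5 genes, Clec4f and Vsig4, with sums of 47.4 to 109 RPKM and 108 to 158 RPKM. Of the 4 hepatocyte markers found, Alb and Apoa1 were called higher on the deposited RPKM and 0 after median-ratio scaling, with sums of 11700 to 17400 RPKM and 24900 to 29300 RPKM. These defining hepatocyte genes were the most abundant of all the lists, as the label liver implies, and no marker of any list was at 0 in all mice. Of the markers called, Hand2, Myh11 and Eln exceeded the mean of 0.5 RPKM only in the AdVEGFA group. The part of these cell types in the collagen levels was not tested.

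Col1a1 and Col4a1 were also set against each marker of 4 of these lists within the same mouse, as a ratio of RPKM. These ratios were added after the values were seen and carry no test. The log2 fold change was 3.51 for Col1a1, against 0.50 to 2.43 over the stellate cell markers. It was 3.06 for Col4a1, against 1.63 to 2.10 over the sinusoidal markers. A ratio to any gene of smaller change also rises, so a separation need not be particular to these markers. The share of all genes with such a separation was not computed. The ratio of Col1a1 to each of the 8 stellate cell markers was higher in every AdVEGFA mouse than in every AdCMV mouse, with 0.892 to 1.95 and 3.05 to 6.30 for Pdgfrb, a receptor of stellate and other mural cells. Against the smooth muscle and myofibroblast markers the groups overlapped for 4 of 5, with 0.72 to 2.43 and 0.567 to 1.63 for Acta2, the smooth muscle actin, and Cnn1 was at 0 in a mouse. The separation was narrow for the stellate marker Ngfr, with 0.476 to 1.34 and 1.39 to 4.17. For the contractile marker Tagln the groups overlapped, with 0.0667 to 0.286 and a higher range of 0.181 to 0.701. An overlap thus does not show an unchanged ratio, and the source of the chains was not tested. The ratio of Col4a1 to each of the 5 sinusoidal markers was higher in every AdVEGFA mouse than in every AdCMV mouse. The separation was narrow for Lyve1, with 0.595 to 1.33 and 1.35 to 3.45. For the 7 other endothelial markers the groups overlapped for 4, among them Esam, a junction protein, with 1.40 to 3.57 and 2.10 to 2.43. They did not overlap for Cdh5, the cadherin of endothelial junctions, with 1.35 to 1.91 and 1.99 to 2.35, nor for Tek and Egfl7.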

How the data were processed

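Liver RNA of 5 AdCMV and 5 AdVEGFA mice was compared. Per the submitters' processing notes, reads were mapped with TopHat to mm9 and handled with HOMER, and versions are not given in the sources used here. The authors deposited RPKM values per RefSeq transcript and mouse, with transcript length in bases, scaled by library size alone. Their own log fold change and FDR columns were also deposited and were not used. Read numbers were recovered from the steps of the RPKM values, of which 99.994 to 100% were whole within 0.1 read (values below 200 reads). Reads summed over transcripts exceeded the mapped reads by 2.31 to 13.9%, so some reads were counted more than once. The 5 entries without a symbol held at most 0.00534% of a library and were left out. Between libraries of a group, the squared differences in reads averaged at least 11.7 times those of counting noise (chi-square per degree of freedom). This average leaves out the lowest transcripts and need not hold for low ones. Limits of depth cover counting error only.

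limma 3.58.1 (R 4.3.3, eBayes with trend) was run on log2(RPKM + 0.1) for the 13933 genes whose mean exceeded 0.5 RPKM in either group. P-values were adjusted by Benjamini-Hochberg over these genes, and a call required an adjusted p below 0.05 and a log2 fold change beyond 1 in either direction. Fold changes on this scale understate changes of low genes. Ratios were tested with exact permutation in Python 3.11.15 (numpy 2.4.6, pandas 2.3.3). The limma fit was checked on simulated data with known changes, and the permutation test on small sets of made-up values. Alternatives tried were scaling by median ratio or upper quartile, totals without Mup genes, treat, voom on recovered reads, pseudocounts of 1 and 0.01, other filters, 1 entry per symbol, a block on the replicate number and omission of each mouse in turn. Median-ratio scaling with voom was added after seeing the data. Any collagen chain could be named, and the other pathway genes and markers named come from fixed lists. The chains and gene lists were chosen with earlier results of these data known.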

Additional observations from a re-analysis of the deposited data

Results flagged for a closer look

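Of 54 sets of 5 values examined, 5 held a mouse far from the other 4 of its group, where chance gives about 1 in 20. In the AdVEGFA group replicate 4 was the highest for Col27a1 (1.965 RPKM, the next mouse at 0.925 RPKM), Col15a1 (3.681 RPKM, the next at 1.761 RPKM) and Col12a1 (1.488 RPKM, the next at 0.399 RPKM). The same mouse had the lowest log2 ratio of Col3a1 to Col1a1, 0.72, with the next at 1.77. In the AdCMV group replicate 5 was the highest for Col6a2 (0.845 RPKM, the next at 0.343 RPKM).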

How the results depend on the processing

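Of the 13 chains called higher, 12 kept the call under all 23 alternatives. The exception was Col16a1, which lost it under treat (2.03) and with a pseudocount of 1 (0.96). The number of chains called higher was 12 to 14, and 13 to 14 when each mouse was left out. The number called lower was 0 except under median-ratio scaling, upper quartile scaling, totals without Mup genes and median-ratio scaling with voom, which each called 1 (Col27a1). Of the other pathway genes, 12 were called higher with totals without Mup genes, 7 under treat (3.61% of all genes), 10 with a pseudocount of 1, and 15 to 21 when each mouse was left out. Under median-ratio scaling, upper quartile scaling, totals without Mup genes and median-ratio scaling with voom, in this order, the log2 fold change turned negative for Col5a3 (-0.22, -0.17, -0.31 and -0.27), P4ha1 (-0.24, -0.20, -0.34 and -0.23), P4hb (-0.23, -0.18, -0.33 and -0.24) and Ppib (-0.21, -0.17, -0.32 and -0.23), and Col18a1 was at -0.05 with totals without Mup genes. Leaving out each mouse gave -0.30 to 0.15 for Col13a1 and -0.10 to 0.08 for the log2 ratio of Col4a1 to Col4a2, which was 0.22 with a pseudocount of 1. Col15a1 to Col18a1 was at -0.01 with a pseudocount of 1. The cause was not tested. With the replicate number as a block, 13 chains were higher, 0 lower, and 19 other pathway genes higher. The correlations of same-numbered mice were 0.00763 to 0.291, and replicate 5 alone matched best with its own number. These values do not show that the numbers pair the mice, and they cannot exclude it. Over all genes, calls numbered 1808 higher and 214 lower on the deposited RPKM (89.4% higher), 1082 and 438 after median-ratio scaling (71.2%), 973 and 558 with totals without Mup genes (63.6%), 503 and 36 under treat, and 954 and 147 with a pseudocount of 1. Chains under about 10 reads per mouse were limited by depth.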
